A study of Mus musculus with 6 samples.

Results

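The rRNA of adult whole brains from Snord115-KO mice was set against that of WT littermates at 108 listed sites of ribose methylation out of 6758 rRNA positions read in the series. The 18S rRNA of the small subunit carries 40 of them and the 28S rRNA 66, and the remaining 2 are in 5.8S rRNA. They were taken as they stand in the deposited overview of adult means, and each was matched by rRNA and mouse position to the read ends of the 3 adult KO brains. These are 3 of the 6 brains of the series, and the other 3 came from E16.5 embryos lacking both Snord115 and Snord116. The adult mutants had inherited a CRISPR/Cas9 deletion of the Snord115 gene array from the father, and the adult WT brains carried the intact array. For the WT brains, 3 per the study's legend, only the authors' means and standard deviations (SDs) were used, and these were also included in an earlier study. The age of the adults in weeks and their sex are not given in the sources used here, nor whether KO and WT libraries were made side by side. Reads were counted on rRNA alone, so the loss of Snord115 itself could not be checked in these tables.

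Box C/D small nucleolar RNAs (snoRNAs) are short guide RNAs that carry the methyltransferase fibrillarin to a ribosomal or other RNA. The guide pairs with its target just upstream of a box called D or D′, and the ribose of the target nucleotide opposite the fifth nucleotide before that box receives the methyl group. Snord115 is a box C/D snoRNA encoded in many tandem copies in the introns of a long non-coding transcript of the imprinted Prader-Willi region, and it is expressed in neurons from the paternal allele only. It has no assigned rRNA target and is best known for a stretch complementary to the serotonin 2C receptor pre-mRNA.

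The guide RNAs that set the limits of the deletion are shown first, since they define which snoRNA genes the mutants lack. Each is written with its protospacer in lower case and the adjacent PAM in capitals, and both matched chromosome 7 of mm10 once, on the plus strand.
sgRNA2: gcatcctagaacaagagtacGGG
sgRNA1: ttgaggtatatcacatactaAGG
The sgRNA2 protospacer lay at chr7:59340564-59340583 and that of sgRNA1 at chr7:59621251-59621270. The stretch between the predicted cuts was chr7:59340581-59621267, or 280687 bases, and the breakpoints of the animals themselves were not read. It held 137 annotated snoRNA genes, all on the minus strand, with 57 distinct sequences of 69 to 88 bases, and 33 genes shared the commonest of them. The target of the study's 23-base Snord115 northern probe is given next to show what the copies have in common, with the D box in capitals.
Snord115 probe target: tcaataggattacgCTGAggccc
This stretch was present whole in 99 of the 137 genes and in 0 of the 1370 snoRNA genes elsewhere, in which the longest shared run was 11 bases.

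RiboMeth-seq reads a methylated ribose as a gap in the ends of alkali-cut fragments, because the methyl group protects the bond on its 3′ side from cleavage. The methylated fraction is 1 minus the read ends at a site over those expected from its 6 neighbours on each side, so that 1 means full protection. The adult KO brains gave 13916180, 18319469 and 11179703 read ends, with 570 or more expected read ends at every site. These depths are those of KO brains 1, 2 and 3, and no depth was used for the WT brains.

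Across the 108 sites the KO and WT profiles lay close together. The median fraction was 0.966 in KO brains and 0.969 in WT brains, and 104 sites reached 0.75 in KO brains, against 104 in WT brains. A fraction of 0.90 was reached at 97 sites in KO brains and at 94 in WT brains. KO brains were higher at 47 sites and lower at 60, and both were at 0 at LSU-G4593 (sites are named by subunit, base and human position). This balance turned round with the kind of read end used for the KO brains. It was 64 sites higher and 43 lower on 5′ ends (median difference 0.00368) and 37 higher and 69 lower on 3′ ends (median -0.00879). In these and all later counts and differences on KO 5′ or 3′ ends, the WT mean stayed as deposited. Such values therefore mix the kind of read end with genotype. The median size of the difference on both ends together was 0.0107. It was within 0.02 at 74 sites and over 0.05 at 13 sites (12% of 108), 8 higher and 5 lower in KO brains. Only 5 sites differed by more than 0.1.

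**Figure D1:**
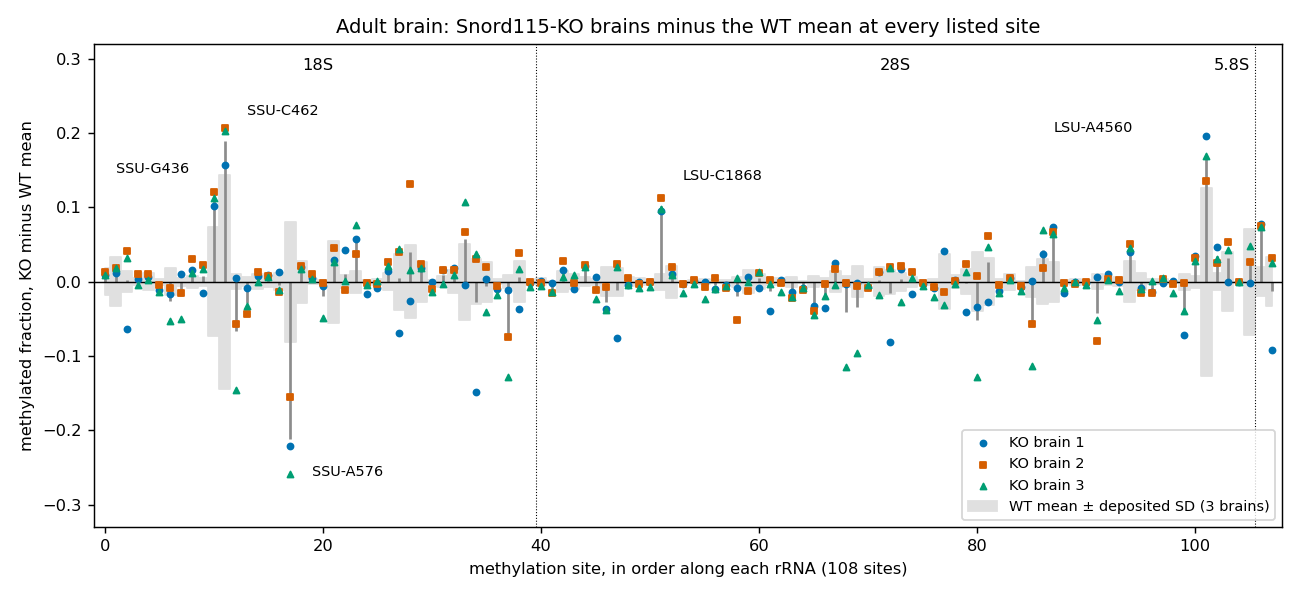
KO minus WT methylated fraction (vertical axis, fraction units) at the 108 sites in order along 18S, 28S and 5.8S rRNA, with each KO brain as a point, the mean difference as a grey line and the deposited WT SD as a grey band around 0. Most points sit near 0, and SSU-A576 at -0.212 and SSU-C462 at 0.189 stand at the ends of the range.

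A moderated test built on the group means and SDs (limma, 3 brains per group) called 0 of 107 sites at an adjusted p under 0.05 (0% called). At an unadjusted p under 0.05 it passed 20 sites (18.7%), 9 higher (8.41%) and 11 lower (10.3%) in KO brains. LSU-G4593, without spread in either group, was not tested. The half-width of the 95% interval of the difference had a median of 0.0301 and ran from 0.00422 to 0.181, so that at many sites only larger shifts could be told from the spread between brains. The difference was larger than the larger of the 2 deposited SDs at 48 sites, and more than 2 times as large at 18. All 3 KO brains lay above the WT mean at 27 sites (25%) and below it at 31 (28.7%), or on one side of it at 58 sites in all (53.7%).

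To show the setting of the sites with the largest differences, the rRNA around them is given for 10 nucleotides on each side with the methylated nucleotide in capitals.
SSU-A576: uccacuuuaaAuccuuuaacg
SSU-C462: gcuaccacauCcaaggaaggc
LSU-A4560: ugccaugguaAuccugcucag
SSU-G436: auuccggagaGggagccugag
5.8S-U14: cucuuagcggUggaucacucg
The snoRNA stretches below pair with such sites and are written through the box that follows, with the nucleotide opposite the methylated one and the box (CUGA or a variant with 1 mismatch) in capitals.
Snord93 with SSU-A576: guuaaaggaUuuacCUGA
Snord14c with SSU-C462: ccuuccuugGauguCUGA
Snord71 with 5.8S-U14: gagugauccAucggCUAA
Gm25744 with LSU-C1868: ccgcaGcgcgCUGA
Gm22489 with LSU-C4032: augagaguaGuggaCAGA
None of these genes lies in the deleted stretch, and the stretch of Snord93 is shared by a second annotated gene, Mir3096. Snord93 is on chromosome 5 (23852210-23852280, plus strand) and Snord14c on chromosome 9 (40803583-40803668, plus strand), in Hspa8. Snord71 is on chromosome 8 (109839295-109839379, plus strand), in Ap1g1. Gm25744 is on chromosome 17 (34952013-34952075, minus strand), and Gm22489 on chromosome 1 (161035850-161035911, plus strand), in Gas5. All positions are from mm10.

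SSU-A576 was the site with the largest difference and the lowest KO level among those that fell short of the WT mean in every brain. Its fraction was 0.500, 0.567 and 0.464 in the 3 KO brains, against a WT mean of 0.722 with an SD of 0.0809. All 3 KO brains were below the WT mean by more than its SD. The KO mean was 0.510 with an SD of 0.0427, and the difference was -0.212 (95% interval -0.365 to -0.0580, limma adjusted p = 0.241). It was -0.196 on KO 5′ ends alone and -0.222 on KO 3′ ends alone. The site had 935, 1488 and 964 read ends in KO brains 1, 2 and 3 where 1871, 3435 and 1797 were expected, and the exact Poisson intervals of the scores were 0.467 to 0.532, 0.544 to 0.589 and 0.429 to 0.497. Such intervals cover counting error at the site only, with the expected read ends held fixed. The study's methods mention no molecular identifiers, so copies of the same fragment may have been counted more than once. The intervals of brains 1 and 3 did not reach the score of brain 2.

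LSU-C1868 had the smallest p of the 107 sites tested and was higher in every KO brain than the WT mean. The KO brains gave 0.939, 0.957 and 0.942, against a WT mean of 0.844 with an SD of 0.0106. The difference of 0.102 had a 95% interval of 0.0509 to 0.153 and an adjusted p of 0.194 by limma. This was the one site whose call depended on how the variance was moderated, with an adjusted p of 0.00737 without a trend of the variance on the fraction and of 0.0425 with the variance of the site alone. Over the 14 settings of the test its adjusted p ranged from 0.00737 to 0.504. The difference was 0.0896 on KO 5′ ends and 0.106 on KO 3′ ends.

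5.8S-U14, one of the 2 methylated nucleotides of 5.8S rRNA, was likewise higher in each KO brain than the WT mean. Its fraction was 0.931, 0.927 and 0.926 in KO brains, against 0.852 with an SD of 0.0194 in WT brains. The difference was 0.0753 (95% interval 0.0197 to 0.131, limma adjusted p = 0.241). The site lies so near the 5′ end of the molecule that its score rested on 5′ read ends, of which 3491 were expected in KO brain 1 against 0.0556 expected 3′ ends. The other 5.8S site, 5.8S-G75, gave 0.854, 0.978 and 0.971 in KO brains and a mean of 0.947 in WT brains. There the KO brains fell on both sides of the WT mean, and the difference of -0.0121 had an adjusted p of 0.867 (limma).

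**Figure D2:**
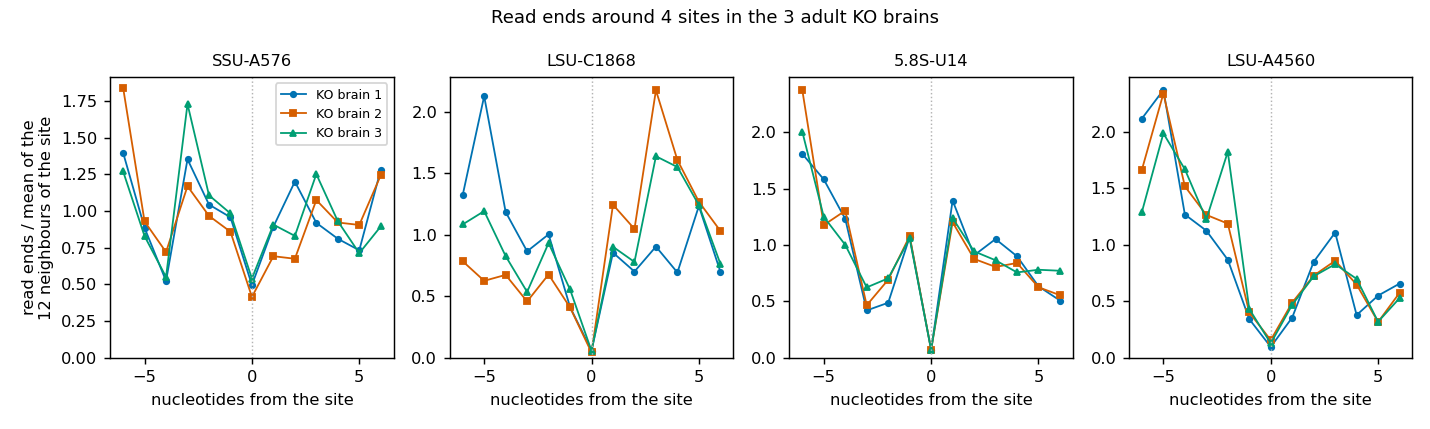
Read ends at each nucleotide from 6 before to 6 after SSU-A576, LSU-C1868, 5.8S-U14 and LSU-A4560 in the 3 KO brains, each divided by the mean of the 12 neighbours of the site (vertical axis, ratio). The dip at the site reached 0.0430 to 0.0584 at LSU-C1868 and 0.0684 to 0.0727 at 5.8S-U14, and was shallower at SSU-A576, where it reached 0.415 to 0.540.

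The next largest differences stood at sites where, as at SSU-A576, the WT brains themselves were spread widely. SSU-C462 was at 0.931, 0.981 and 0.977 in KO brains, against a WT mean of 0.774 with an SD of 0.144. LSU-A4560 was at 0.896, 0.835 and 0.869 in KO brains, against 0.700 with an SD of 0.126 in WT brains. SSU-G436 was at 0.864, 0.882 and 0.875 in KO brains, against 0.762 with an SD of 0.0738 in WT brains. At each of the 3 sites every KO brain was above the WT mean, and the WT SD was several times the KO SD, which was 0.0226, 0.0248 and 0.00771 in the same order of sites. The differences were 0.189, 0.167 and 0.112, with limma adjusted p of 0.244, 0.297 and 0.297. At LSU-A4560 the difference depended on which read ends were used, with 0.216 on KO 5′ ends and 0.0288 on KO 3′ ends.

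LSU-C4032 and SSU-G683 were also higher in all 3 KO brains, by smaller amounts. LSU-C4032 had fractions of 0.972, 0.966 and 0.963 in KO brains, against 0.899 with an SD of 0.0269 in WT brains (difference 0.0683, limma adjusted p = 0.241). SSU-G683, opposite Snord19, had 0.948, 0.928 and 0.967 in KO brains, against 0.891 with an SD of 0.0148 in WT brains (difference 0.0571, limma adjusted p = 0.241). In neither did a KO brain overlap the WT mean plus 1 SD.

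SSU-A1678 and SSU-A468 were lower in KO brains on average, but the 3 KO brains were far apart. At SSU-A1678, opposite Snord82, the fraction was 0.966, 0.901 and 0.848 in KO brains 1, 2 and 3, against 0.976 with an SD of 0.00896 in WT brains. At SSU-A468, opposite Snord83b, it was 0.970, 0.909 and 0.821, against 0.966 with an SD of 0.00972 in WT brains. KO brain 1 was nearest to the WT mean at both sites and brain 3 was farthest below it. The gap was in the 3′ read ends: at SSU-A1678 the KO scores from 5′ ends were 0.975, 0.992 and 0.995, and those from 3′ ends 0.965, 0.895 and 0.837. On KO 5′ ends alone the difference at SSU-A1678 was 0.0111, of the opposite sign to the -0.0711 of both ends together. At SSU-A468 it was -0.00745 on 5′ ends and -0.0659 on both.

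Fractions under 0.75 were found at 5 sites. Besides SSU-A576 and LSU-A4560, a mean under 0.75 in KO or WT brains was found at SSU-C1272, LSU-A3846 and LSU-G4593. SSU-C1272 was at 0.438, 0.596 and 0.480 in KO brains and at 0.464 with an SD of 0.0493 in WT brains. LSU-A3846 was at 0.737, 0.779 and 0.643 in KO brains and at 0.771 with an SD of 0.0398 in WT brains. The KO brains straddled the WT mean at both, and the adjusted p was 0.680 and 0.621 (limma). LSU-G4593 was at 0 in all 3 KO brains and in the WT mean. Its read ends numbered 4949, 6115 and 3869 in the KO brains, more than the 3734, 5136 and 2999.6 expected. A score is set to 0 in that case, so no protection was seen in the adult KO brains. At E16.5 the means at LSU-G4593 were 0.302 in double-KO brains and 0.412 in WT brains. Snord78, a snoRNA of a Gas5 intron, can pair with this site over 13 base pairs.

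**Figure D3:**
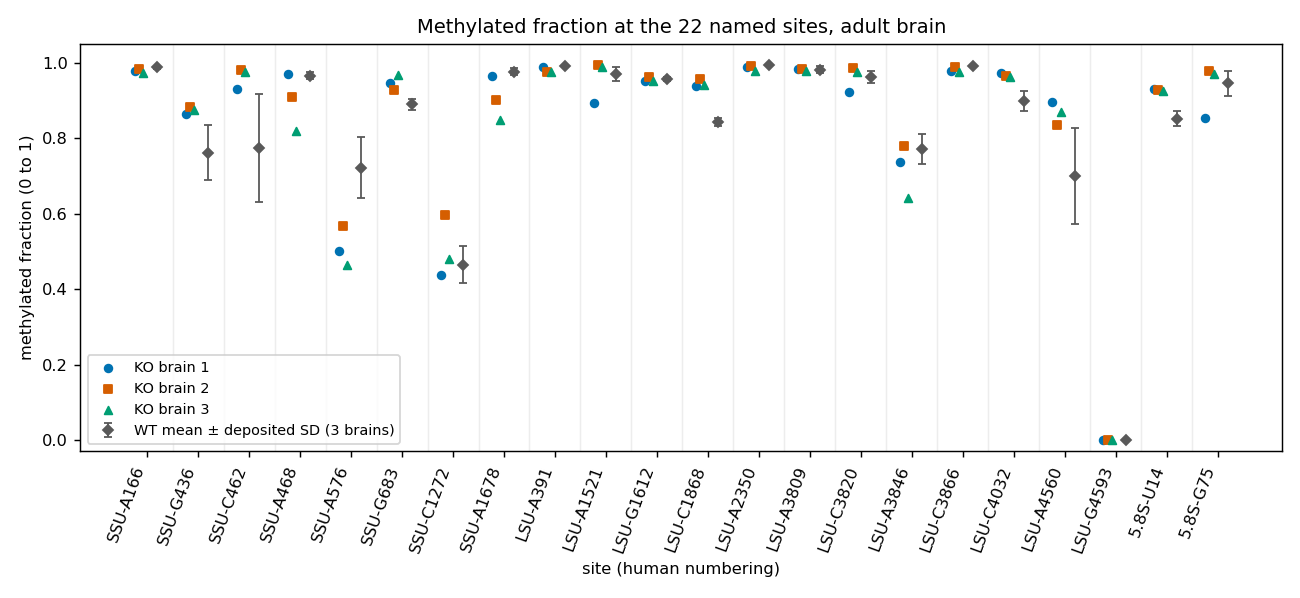
Methylated fraction (vertical axis, 0 to 1) at the 22 sites named by rule, with the 3 KO brains as coloured points to the left and the WT mean with its deposited SD to the right. The KO points are well apart from the WT bar at LSU-C1868, where they sit between 0.939 and 0.957, and scatter on both sides of the WT mean at SSU-C1272.

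Gas5 is a non-coding host gene whose introns encode several of the snoRNAs that guide rRNA methylation. At its 10 listed sites KO brains were higher at 2 and lower at 7, with a median difference of -0.00428 beside -0.00167 over all 108 sites. On KO 5′ ends alone they were higher at 4 and lower at 5 (median -0.000501), and on KO 3′ ends higher at 2 and lower at 7 (median -0.00797). Over all 108 sites KO brains were higher at 47 and lower at 60 on both ends together. The counts over all sites were 64 and 43 on KO 5′ ends (median 0.00368) and 37 and 69 on KO 3′ ends (median -0.00879). All 3 KO brains were below the WT mean at 4 of the 10 sites (28.7% over all sites) and above it at 1, LSU-C4032 (25% over all sites). LSU-A391 gave 0.989, 0.976 and 0.976 in KO brains, against 0.990 with an SD of 0.00137 in WT brains (limma adjusted p = 0.244). Over the list the differences ran from -0.0111 at LSU-A1521 to 0.0683 at LSU-C4032. For all 10 the longest pairing outside the deletion was with a snoRNA gene inside Gas5, such as Snord80 with LSU-G1612 (15 base pairs) and Snord47 with LSU-C3866 (12 base pairs).

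The sites guided from 2 other host genes were also mixed in sign. Their short lists were drawn from general knowledge of these snoRNAs and do not hold every such site. All counts below are to be read beside 47 higher and 60 lower over all 108 sites. On KO 5′ ends these were 64 and 43, and on KO 3′ ends 37 and 69. For 5 sites assigned to Snhg1 introns KO brains were higher at 3 and lower at 2, with a median difference of 0.00983. For 4 sites assigned to Rpl13a introns KO brains were higher at 1 and lower at 3, with a median of -0.00895. By a search for pairing with annotated snoRNA genes, 7 sites had their longest duplex with a gene inside Snhg1 (2 higher and 5 lower, median -0.00262), and 5 with one inside Rpl13a (1 higher and 4 lower, median -0.00948). By place in the rRNA, KO brains were lower at 13 of 15 sites of 28S between human positions 2000 and 3500 (median -0.00712) and at 17 of 27 between 3500 and 4400 (median -0.00191). They were higher at 14 of 22 sites of 18S up to position 650 (median 0.00623). In 18S after 650 KO brains were higher at 10 and lower at 8 sites. In 28S they were higher at 3 and lower at 9 before 2000, and higher at 7 and lower at 4 after 4400. On KO 5′ ends alone the counts were 7 higher and 8 lower from 2000 to 3500 and 16 higher and 11 lower from 3500 to 4400, where 3′ ends gave 5 higher and 22 lower. In 18S up to 650 they were 14 higher and 8 lower on 5′ ends, and 11 each way on 3′ ends. By methylated base the medians were between -0.00488 at U and 0.00160 at G on both ends, and between -0.00237 at U and 0.00662 at C on 5′ ends.

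The sites were also grouped by the base that follows the methylated nucleotide, to be read beside the 47 higher and 60 lower of all 108 on both ends together. Before U, KO brains were higher at 23 of 27 sites (median 0.0126). Before A they were higher at 1 of 18 and lower at 16 (median -0.0223). Before C they were higher at 10 and lower at 11 of 21, and before G higher at 13 and lower at 29 of 42. The pattern before U was shared by the 3 KO brains, with medians of 0.0119, 0.0192 and 0.00866 in brains 1, 2 and 3. Before A it was not, with medians of -0.00108, -0.0108 and -0.0453.

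The 2 kinds of read end did not give the same answer in these classes. Before C, the 3′-end score of KO brain 1 was below its 5′-end score at 21 of 21 sites, with a median gap of -0.302, while the median gap was -0.00223 in brain 2 and 0.00500 in brain 3. Before A, the median gap was -0.00518, -0.0446 and -0.0576 in brains 1, 2 and 3. Brain 1 lay below the WT mean at 16 of 21 sites before C, whereas brains 2 and 3 lay above it at 17 and 16. With KO 5′ ends alone the count before A was 8 higher and 9 lower (median -0.00340), while that before U was 21 higher and 6 lower (median 0.0118). Before C it was 18 higher and 3 lower (median 0.0214), and before G 17 higher and 25 lower (median -0.00173). Over all sites it was 64 higher and 43 lower on KO 5′ ends. With KO 3′ ends alone the count before C was 3 higher and 18 lower (median -0.0521). Before A it was 1 higher and 16 lower (median -0.0438), and before U 19 higher and 8 lower (median 0.0152). Before G it was 14 higher and 27 lower (median -0.00325), and over all sites 37 higher and 69 lower. The gap between read ends thus moved with the differences before A and C, and its part in them was not tested, since no read ends of WT brains were used.

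**Figure D4:**
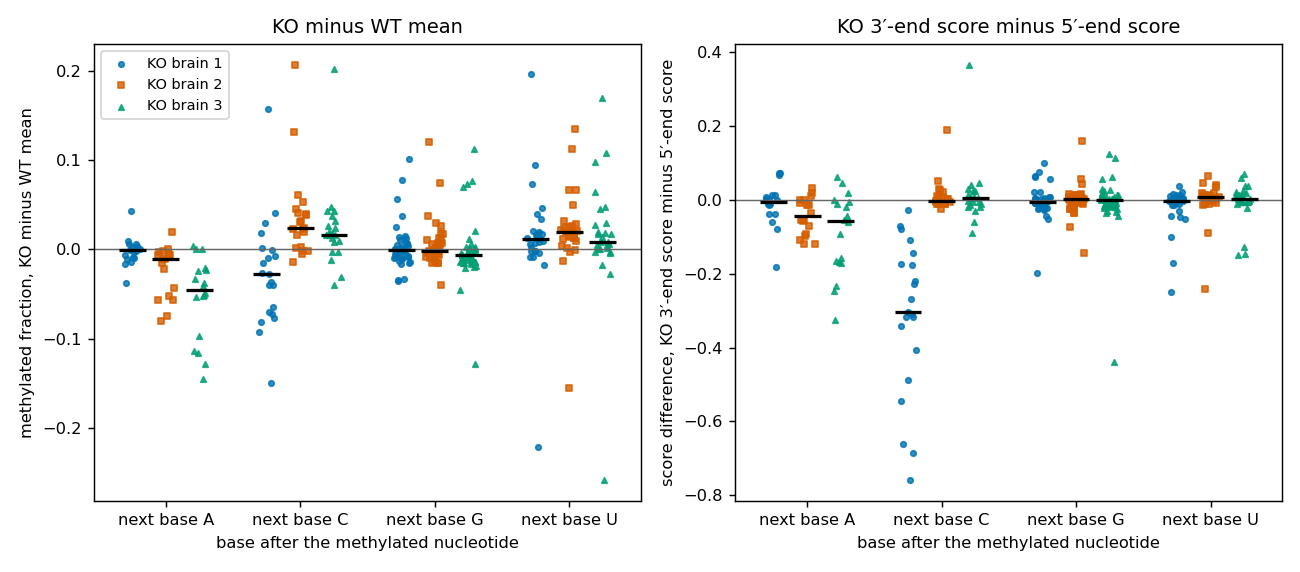
Left, KO minus WT mean (fraction units) and right, KO 3′-end score minus 5′-end score, for each site by the base that follows it, with one column of points per KO brain and black bars at the medians. KO brain 1 stands apart before C in the right panel at a median of -0.302, and brains 2 and 3 lie below 0 before A in both panels.

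At 6 sites the deposited KO mean equalled that of the 3 brains only with 1 brain scored on 5′ ends alone. These were SSU-G644, SSU-A1383, LSU-A1313, LSU-A3804 and LSU-U3904 in brain 1 and LSU-C2409 in brain 3. At LSU-A1313 the score of brain 1 was 0.588 on both ends and 0.969 on 5′ ends, against 0.979 in WT brains. The other corrected sites showed the same kind of gap, as LSU-A3804, with 0.550 on both ends and 0.959 on 5′ ends in brain 1, against 0.918 in WT brains.

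Pairing between the deleted snoRNAs and the rRNA was described by a search that placed each site opposite the fifth nucleotide before a box (CTGA, at most 1 mismatch), in an unbroken duplex with at most 1 G-U pair, on the strand of the transcript. Among the 1370 snoRNA genes outside the deletion a duplex of 9 or more base pairs was found at 100 of the 108 sites, with a median length of 12. Among the 137 genes inside it such a duplex was found at 2 sites, SSU-A159 and LSU-A4560, and the median of the longest was 4. The first set is larger and more varied (1307 distinct sequences, against 57), so the lengths are not comparable one for one. Of 6638 rRNA positions searched, 15 (0.226%) could form such a duplex with a deleted copy. The same share was not computed for the genes outside the deletion. Their count of 100 sites therefore has no such share beside it and is not read as a trait of the sites.

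The 2 sites with the longest pairing to the deleted genes are printed to show it, with the stretch of the 4 genes that pair over 10 base pairs.
SSU-A159: aacugugguaAuucuagagcu
LSU-A4560: ugccaugguaAuccugcucag
Gm24100 with both: uaggaUuaccCUGA
Gm24100 lies on chromosome 7 (59598904-59598982, minus strand, mm10), in the host gene Snhg14. At SSU-A159, 127 of the 137 deleted genes reached 9 or more pairs, and a gene outside, Snord45c, reached 17. At LSU-A4560, 128 of the 137 did so, and 0 genes outside reached 9, the longest there being 8. The search found no outside duplex of 9 at other methylated sites either. At SSU-C1703, SSU-C797 and SSU-A590 the longest outside were 6, 7 and 8, with WT means of 0.950, 0.979 and 0.971. A missing duplex in this search thus does not show that a site lacks another guide. SSU-A159 had fractions of 0.987, 0.990 and 0.982 in KO brains, against 0.981 with an SD of 0.0118 in WT brains, a difference of 0.00608 (95% interval -0.0104 to 0.0226, limma adjusted p = 0.621). LSU-A4560 was the site given above at 0.867 in KO brains and 0.700 in WT brains, higher in KO brains by 0.167 (95% interval -0.0116 to 0.346). Whether the lack of these copies in KO brains had a part in either difference was not tested. At SSU-A576, the site that was lowest relative to WT, the longest duplex with a deleted gene was 6 base pairs, and with Snord93 it was 13. The part of pairing in that difference was not tested either. A match is a description of letters and not evidence of a guide, and no match says only that these letters are not in the window.

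**Figure D5:**
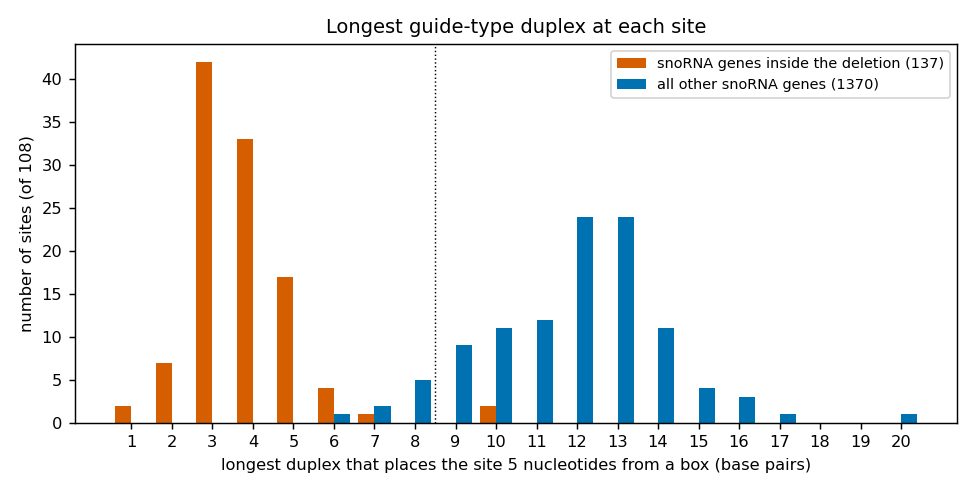
Number of sites (vertical axis, of 108) by the longest duplex in base pairs, for the 137 snoRNA genes inside the deletion and the 1370 elsewhere, with a dotted line below 9 base pairs. The deleted genes reach past the line at 2 sites, and the others at 100. The share over all rRNA positions was computed for the deleted genes only.

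The KO minus WT difference was set against that of the E16.5 double-KO brains, which had their own WT means. The difference between the 2 differences passed the test at 0 of 108 sites (0% called at adjusted p under 0.05, limma; 5 sites, 4.63%, at an unadjusted p under 0.05). At SSU-A576 the E16.5 KO mean was 0.916 and the E16.5 WT mean 0.907, a difference of 0.00859, and the adult difference minus the E16.5 difference was -0.220 (adjusted p = 0.699, limma). LSU-A4560, which the deleted copies can pair with, was at 0.712, 0.755 and 0.244 in the E16.5 double-KO brains and at 0.628 in the E16.5 WT brains. There 2 of the 3 double-KO brains were above the WT mean and 1 was far below it. At 5.8S-U14 the E16.5 means were 0.702 in double-KO brains and 0.700 in WT brains. Genotype and age change together here, and the adult WT and E16.5 WT brains are different animals.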

How the data were processed

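RiboMeth-seq was run on total RNA of whole brains, from which fragments of 20 to 40 nt were cloned and sequenced on an Ion Proton. The authors mapped reads to curated mouse rRNA, and Bowtie2 2.3.4.1 and cutadapt 2.0 appear in their processing notes. The deposited tables of the KO brains hold counts of 5′ and 3′ read ends per position, without normalization, and the methylated fraction derived from them by the authors. The deposited overview holds mean scores and SDs per group by the authors, some corrected to 5′ ends, and only these were used for WT brains. A column of 6 values without a heading (1 column) was not used. The fraction recomputed from the counts equalled the deposited one within 1e-05 at 6722 of 6722 positions in each adult KO brain, with weights from 1 for the nearest to 0.5 for the farthest neighbour.

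The deposited KO SD divided by n at 108 of 108 sites, so both SDs were scaled to n - 1, which for WT brains is assumed. The pooled variance with 4 degrees of freedom was moderated with limma 3.58.1 (R 4.3.3), the mean fraction as trend, and p-values were adjusted by Benjamini-Hochberg over 107 sites. The study's methods describe biological triplicates for the adult brains, and the labels only number them. On data simulated for this test (50 runs, 107 sites), shifts of 0.2 were called at 92.8% of changed sites. Shifts of 0.05 were called at 57%, and there were 0.66 false calls per run. Each run lowered several sites by each size at once. Values were drawn from a normal distribution without an upper bound, with the SDs of these data taken as true. The Benjamini-Hochberg cutoff loosens as more sites change. These shares are thus over changed sites together. They give the power neither for a lone shifted site nor at sites with a wide spread. At SSU-A576 and SSU-C462 the observed KO minus WT differences of -0.212 and 0.189 were not called. Their confidence intervals had half-widths of 0.154 and 0.181. The lack of calls therefore does not exclude shifts of this size at such sites. snoRNA genes and sequences were from GENCODE vM21 (1507 genes, T written as U), and the deletion from mm10.

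Sites were named by rule: those past the threshold (0), the 10 largest differences, LSU-C1868, SSU-A576 and both 5.8S sites, means under 0.75 and 10 sites of Gas5 introns, or 22 in all. SSU-A159 and the corrected sites were added after their values were seen. The members and lists were chosen with earlier results of these data known.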

Additional observations from a re-analysis of the deposited data

Results flagged for a closer look

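At 2 of the named sites every adult KO brain lay on one side of its WT mean and every E16.5 double-KO brain on the other, which was the case at 15 of all 108 sites (13.9%). LSU-C1868 differed by 0.1019 in the adult, KO minus WT, and by -0.1089 at E16.5, with 0.738, 0.550 and 0.622 in the E16.5 KO brains and 0.746 with an SD of 0.107 in the E16.5 WT brains. LSU-A391 differed by -0.01027 in the adult and by 0.02979 at E16.5. The difference between the ages did not pass the test at either site (adjusted p = 0.699 at both, limma), and age and genotype cannot be told apart in it.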

How the results depend on the processing

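The count of sites past the threshold, 0 of 107, was 0 under 11 of 13 alternatives and 1, LSU-C1868, without the trend and with the variance of each site alone (adjusted p 0.00737 and 0.0425, limma), and it was 0 without any 1 KO brain. The count of sites where the 2 ages differed was 0 under all 5 alternatives. The median size of the difference, 0.0107, was 0.0193 on KO 3′ ends alone and 0.0117 to 0.0142 without 1 KO brain. The count over 0.05, 13, was 31 on KO 3′ ends, 9 to 18 without 1 KO brain, and 5 sites passed 0.1. The number on one side of the WT mean was 58 on both ends, 70 on KO 5′ ends and 57 on KO 3′ ends. It was 65 to 87 without 1 KO brain, where fewer brains have to fall on one side. The number at or above 0.75, 104, was 105 on KO 5′ ends, 99 of 107 on KO 3′ ends and 104 to 105 without 1 KO brain. A setting chosen after seeing the data took 5′ ends alone for KO brain 1 before C and for KO brains 2 and 3 before A. It gave 0 sites past the threshold and medians of 0.0219 before C and -0.00221 before A.

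Of the 22 named sites 8 changed sign under some alternative. On KO 5′ ends the difference became 0.0111 at SSU-A1678, 0.0214 at LSU-A1521, 0.0263 at LSU-C3820, 0.0611 at LSU-A3846 and 0.0232 at 5.8S-G75. On KO 3′ ends it became 0.0119 at LSU-G1612 and -0.000651 at LSU-A3809. The added setting gave 0.00792 at SSU-A1678, 0.0219 at LSU-A1521, 0.0175 at LSU-C3820 and 0.0271 at 5.8S-G75. Leaving out 1 KO brain gave -0.0286 (without brain 2) to 0.0216 (without brain 1) at LSU-A1521, -0.0138 to 0.0180 at LSU-C3820 and -0.0339 to 0.0280 at 5.8S-G75, each with brains 2 and 1 left out in that order. It gave -0.00473 (without brain 2) to 0.000438 (without brain 1) at LSU-G1612, where it was 0.000423 without brain 3. It gave -0.000676 (without brain 1) to 0.00185 (without brain 3) at LSU-A3809, where it was -0.000128 without brain 2, and -0.00510 (without brain 2) to 0.0738 (without brain 1) at SSU-C1272. The cause of these changes was not tested.

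No paired analysis was possible because the WT brains entered as means and SDs only, without values per brain. Restricted to sites where each KO brain had 1000 or more expected read ends (93 tested), the test made 0 calls, as over all sites.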
